A study of Mus musculus with 34 samples.

Results

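Mouse T cells carrying the AYAA form of the CD28 receptor were set against T cells labelled CD28 KO, both 24 h after stimulation. The comparison takes the 3 CD28 AYAA libraries and the 2 CD28 KO libraries of that time, 5 of the 34 libraries of the series, chosen by their genotype and time labels. All came from C57BL/6 mice aged 6-12 weeks. Pan T cells were taken from the spleen by negative selection and were stimulated with antibodies to CD3 and CD28 together with recombinant IL-2, and ribosomal RNA was removed before sequencing. The series as a whole holds 13 groups of stimulated and unstimulated T cells, with WT, Ars2 KO, DKI and CD28 Y170F cells beside the 2 genotypes compared here. Its title ties CD28 to splicing of Pkm, glycolysis and effector function in CD8 T cells. The AYAA group has its CD28 receptor with a changed tail, whereas the KO label means that the receptor is missing, so the antibody to CD28 has no target there. The design text calls the libraries of a group biological replicates. The p-values below rest on the spread between libraries of a group, estimated over all 34 libraries and not from these 5 alone. The labels give no sex, and reads from Xist and Y-linked genes split the animals into 2 males and 1 female in the AYAA group and 1 male and 1 female in the KO group.

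CD28 is the costimulatory receptor that acts beside the T cell receptor, and T cells triggered without it divide little and make little IL-2. Its short cytoplasmic tail holds a membrane-near tyrosine motif, YMNM, which recruits PI3 kinase and GRB2, and a distal proline motif, PYAP, which binds SH3 domains of LCK and GRB2 and the actin linker filamin A. In AYAA mice both prolines of the distal motif are replaced by alanine, so the tyrosine motif and the extracellular domain stay in place. Costimulation through this tail is known to raise metabolic, biosynthetic and cell cycle genes in activated T cells.

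The coding sequence of the mouse tail around both motifs is shown because it holds the proline motif that the AYAA name refers to. It is the reference sequence of the last exon of Cd28, exon 4 of 4, at chr1:60769678-60769764 on the plus strand of GRCm38 and covers codons 184 to 212 of 218. Capitals mark the codons of the tyrosine motif, which starts at codon 189, and of the proline motif, which starts at codon 206.
Cd28 tail: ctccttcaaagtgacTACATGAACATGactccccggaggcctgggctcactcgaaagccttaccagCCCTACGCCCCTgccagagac

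The level of Cd28 RNA did not separate the groups. Cd28 (ENSMUSG00000026012.2, chromosome 1, 60716800 to 60773359) measured 534, 474 and 467 CPM (counts relative to library size, scaled between libraries by TMM) in the AYAA libraries and 482 and 476 CPM in the KO-labelled libraries. The groups overlapped: on the log2 scale AYAA libraries were 0.04 above KO-labelled libraries, with a standard error (SE) of 0.16, and the adjusted p was 0.90. The count covers every exon of the gene and the deleted part is not given in the labels, so this value does not check the KO label, and the libraries are called KO-labelled here because every direction below rests on it. Srrt, which encodes the cap-binding partner ARS2, measured 185, 185 and 187 CPM in AYAA libraries and 154 and 148 CPM in KO-labelled libraries. These groups did not overlap, but the difference did not pass the test (log2 fold change 0.30, SE 0.23, adjusted p = 0.37). Among the alternatives, Srrt passed only in a fit to the 2 groups alone. CPM values of the 2 groups did not overlap in 10626 of 18292 genes tested (58.1%), so a lack of overlap is common here.

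The libraries were similar in depth, with 18970782, 21357646 and 20951781 expected counts in the AYAA group and 15686963 and 18859114 in the KO-labelled group. Markers of T cells summed to 2487 to 2592 CPM of total counts in AYAA libraries and 2393 to 2482 CPM in KO-labelled libraries. B cell markers summed to 290, 302 and 250 CPM in AYAA libraries and 533 and 384 CPM in KO-labelled libraries. Most of this was Ighm, which overlapped between the groups, at 225, 261 and 218 CPM in AYAA libraries and 335 and 252 CPM in KO-labelled libraries. B cell markers other than Ighm summed to 64.5, 40.7 and 32.4 CPM in AYAA libraries and 199 and 132 CPM in KO-labelled libraries. Myeloid markers summed to 8.17 to 9.6 CPM in AYAA libraries and 11.4 to 16.8 CPM in KO-labelled libraries, natural killer cell markers to 57.5 to 104 CPM in AYAA libraries and 45.9 to 94.4 CPM in KO-labelled libraries, and red cell and platelet markers to 3.06 to 4.35 CPM in AYAA libraries and 7.08 to 17.1 CPM in KO-labelled libraries. Most of the natural killer sum was 1 gene, Eomes, which activated CD8 T cells also express, at 51.6 to 84.5 CPM in AYAA libraries and 35.8 to 76.8 CPM in KO-labelled libraries. The 2 unstimulated WT libraries, which enter the fit but no tested comparison here, stood apart. They had 17.2% and 17.5% of counts from mitochondrial ribosomal RNA, against at most 0.18% in the 5 libraries compared. Their B cell markers summed to 2535 and 2877 CPM and their myeloid markers to 305 and 311 CPM. A fit to 24 h libraries alone called 5897 genes. Cd4 did not differ between the groups in the test (log2 fold change -0.05, SE 0.30, adjusted p = 0.94), while Cd8a measured 411, 479 and 459 CPM in AYAA libraries and 266 and 315 CPM in KO-labelled libraries (log2 fold change 0.63, SE 0.14, adjusted p = 0.0019, and 0.070 without KO replicate 1). Cd8b1, the gene of the other CD8 chain, overlapped between the groups. It was at 212, 243 and 265 CPM of total counts in AYAA libraries and 201 and 230 CPM in KO-labelled libraries. In bulk RNA, fewer cells of a type and less RNA per cell cannot be told apart.

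The 2 groups differed widely at 24 h. Genes of DNA replication, mitosis, ribosome biogenesis and the respiratory chain were higher in AYAA cells, together with Il2ra, Irf4, Lag3 and interferon-induced GTPases. In glycolysis 11 of 21 genes tested were called higher. Some genes known from naive and quiescent T cells, such as Il7r, Tob1 and Cdkn1b, were lower in AYAA cells. Across 18292 genes tested with edgeR's quasi-likelihood F test, 5012 (27.4%) were called at a Benjamini-Hochberg adjusted p under 0.05. Of these 3407 (18.6% of genes tested) were higher and 1605 (8.77%) were lower in AYAA libraries, and the median log2 fold change of all genes tested was 0.03. Among the called genes, 1106 of the higher and 432 of the lower ones changed by at least 1 on the log2 scale. The share of called genes that were higher was 68.0%, and 57.8% when the fit held protein-coding genes only. The count rests in part on the first KO library: without KO replicate 1 it was 1922, and without KO replicate 2 it was 3398. List counts given below without a KO library are to be read against these lower counts over all genes. None of the 226 named genes called at 24 h changed sign under the alternatives in which it was tested.

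**Figure D1:**
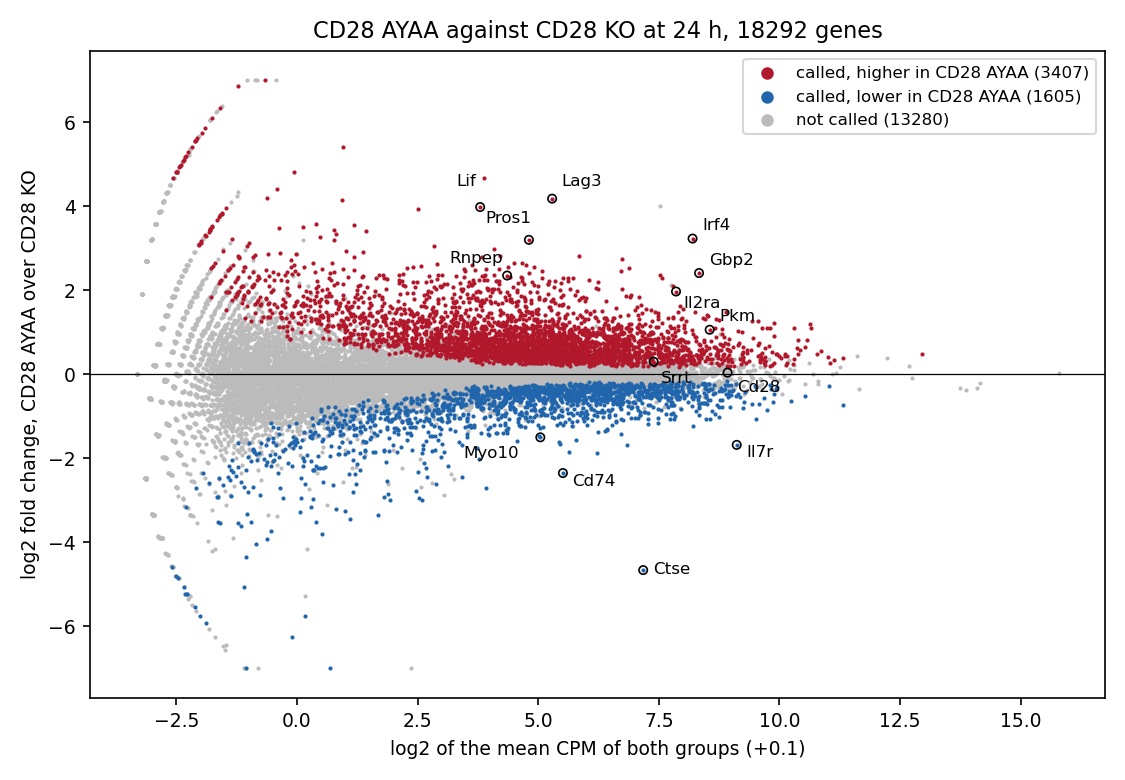
Log2 fold change of CD28 AYAA over CD28 KO libraries at 24 h against the log2 of the mean CPM of both groups, 1 point per gene tested, with values beyond 7 drawn at 7. Red points are the 3407 genes called higher in AYAA libraries, blue points the 1605 called lower and grey points the rest; Ctse, Lag3 and Irf4 stand far from 0 while Cd28 lies at 0.04.

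Among receptors of the CD28 family and other inhibitory receptors, 7 of 14 tested were called higher and 1 lower, with a median log2 fold change of 0.60. The widest difference was in Lag3, an inhibitory receptor that binds MHC class II, with 82.0, 73.8 and 66.0 CPM in AYAA libraries and 4.31 and 3.87 CPM in KO-labelled libraries. Every AYAA library lay more than an order of magnitude above both KO-labelled libraries (log2 fold change 4.18, SE 0.42, adjusted p = 2.2e-07). WT libraries of the same time held 33.1 and 67.0 CPM of Lag3, which overlaps the lower end of the AYAA libraries. Tigit, an inhibitory receptor for nectin-like ligands, measured 4.91, 7.36 and 9.25 CPM in AYAA libraries and 0.863 and 1.86 CPM in KO-labelled libraries (log2 fold change 2.37, SE 0.36, adjusted p = 2.5e-05). Icos, the inducible costimulatory relative of CD28, had 116, 114 and 104 CPM in AYAA libraries and 58.1 and 61.4 CPM in KO-labelled libraries (log2 fold change 0.90, SE 0.14, adjusted p = 3.7e-05). Ctla4, the inhibitory relative that competes with CD28 for its ligands, lies near Cd28 on chromosome 1 (60887000 to 60915832). It had 38, 45.4 and 37.7 CPM in AYAA libraries and 15.8 and 12.5 CPM in KO-labelled libraries. Its adjusted p was 0.0093, and 0.060 and 0.096 without KO replicate 1 or 2. The exception was Vsir, which encodes the inhibitory receptor VISTA of resting T cells, with 184, 176 and 161 CPM in AYAA libraries and 270 and 242 CPM in KO-labelled libraries (log2 fold change -0.56, SE 0.14, adjusted p = 0.0046, and 0.089 without KO replicate 1). Without KO replicate 1, 4 members were called higher and 0 lower, and without KO replicate 2 the counts were 3 and 1.

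Of the costimulators of the TNF receptor family, 5 of 13 tested were called higher and 1 lower (median log2 fold change 0.58). Tnfrsf18, which encodes GITR, measured 53.8, 51.5 and 48.1 CPM in AYAA libraries and 29.4 and 26.7 CPM in KO-labelled libraries, which is 0.87 on the log2 scale (SE 0.10, adjusted p = 7.3e-07). Tnfrsf9, which encodes 4-1BB, had 34.6, 41.9 and 41.9 CPM against 14.2 and 13.8 CPM in KO-labelled libraries (log2 fold change 1.5, SE 0.38, adjusted p = 0.0046, and 0.058 without KO replicate 1). The one member that fell was Cd40lg, the ligand by which helper T cells act on CD40, with 9.36, 7.86 and 9.75 CPM in AYAA libraries and 21.6 and 22.7 CPM in KO-labelled libraries (log2 fold change -1.30, SE 0.31, adjusted p = 0.0032). Leaving out KO replicate 1 left 3 members called higher and 1 lower.

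The genes for proteins that bind or act just below the CD28 tail moved in both directions, with a median near that of all genes. Of 20 tested, 3 were called higher and 5 lower, with a median of -0.02. Flna, which encodes the PYAP-binding linker filamin A, measured 1190, 1114 and 1008 CPM in AYAA libraries and 1292 and 1156 CPM in KO-labelled libraries (log2 fold change -0.15, SE 0.12, adjusted p = 0.37). Lck, the SRC family kinase that docks on PYAP, had 386, 387 and 372 CPM in AYAA libraries and 407 and 380 CPM in KO-labelled libraries (adjusted p = 0.72). Both genes overlapped between groups. Pik3r1, the regulatory subunit of PI3 kinase that docks on YMNM, was lower in every AYAA library, with 166, 157 and 160 CPM against 238 and 229 CPM in KO-labelled libraries (log2 fold change -0.54, SE 0.09, adjusted p = 9.8e-05). Malt1, a paracaspase that acts in NF-kB activation, was higher, with 213, 205 and 180 CPM in AYAA libraries and 118 and 121 CPM in KO-labelled libraries (log2 fold change 0.74, SE 0.14, adjusted p = 0.00033). The list held 2 higher and 2 lower calls without KO replicate 1. In the T cell receptor complex, 7 of 16 genes tested were called higher and 2 lower, all by less than 1 on the log2 scale (median 0.21). Trac, the constant segment of the alpha chain, had 309, 313 and 265 CPM in AYAA libraries and 220 and 217 CPM in KO-labelled libraries (log2 fold change 0.44, SE 0.09, adjusted p = 0.0010). These counts were 4 and 0 without KO replicate 1. Of the NF-kB subunits, inhibitors and targets, 5 of 20 tested were called higher and 2 lower (median 0.09), and 2 and 0 without KO replicate 1.

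The receptor for IL-2 and its feedback genes were higher in AYAA cells, although IL-2 was added to every culture. Of 14 members tested, 9 were called higher and 2 lower (median log2 fold change 0.67), and 7 and 1 without KO replicate 1. Il2ra, the alpha chain that gives the receptor its high affinity, measured 381, 367 and 359 CPM in AYAA libraries and 96.9 and 91.6 CPM in KO-labelled libraries. The groups stood far apart (log2 fold change 1.97, SE 0.25, adjusted p = 3.4e-06), and WT libraries of the same time were higher still at 786 and 644 CPM. Socs2, a feedback inhibitor induced by STAT5, had 57.1, 42.9 and 44.5 CPM in AYAA libraries and 9.95 and 11.0 CPM in KO-labelled libraries (log2 fold change 2.2, SE 0.33, adjusted p = 2.1e-05). Pim2, a survival kinase, had 204, 210 and 205 CPM in AYAA libraries and 82.7 and 97.8 CPM in KO-labelled libraries (log2 fold change 1.19, SE 0.20, adjusted p = 8e-05). Jak1 and Stat5b moved the other way, by -0.46 (SE 0.12, adjusted p = 0.0077, and 0.11 without KO replicate 1) and -0.40 (SE 0.10, adjusted p = 0.0053, and 0.052 without KO replicate 2).

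Receptors for other cytokines split in both directions. Of 17 tested, 4 were called higher and 3 lower (median -0.16), the lower calls numbered 5 with RLE scaling, and without KO replicate 1 the counts were 3 and 1. Il12rb2, the signalling chain of the IL-12 receptor, measured 25.4, 31.8 and 33.1 CPM in AYAA libraries and 2.19 and 5.34 CPM in KO-labelled libraries (log2 fold change 2.98, SE 0.33, adjusted p = 6.6e-07). Its partner chain Il12rb1 had 26, 26.8 and 34.2 CPM in AYAA libraries and 4.08 and 8.37 CPM in KO-labelled libraries (log2 fold change 2.21, SE 0.30, adjusted p = 6.2e-06). Both chains stood below WT libraries of the same time, which held 101 and 154 CPM of Il12rb2. Il7r, the receptor for the survival cytokine IL-7 that activated T cells turn down, was the clearest fall, with 258, 225 and 305 CPM in AYAA libraries and 842 and 849 CPM in KO-labelled libraries (log2 fold change -1.68, SE 0.35, adjusted p = 0.00099). WT libraries of that time, at 199 and 257 CPM, overlapped the AYAA libraries.

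Cytokine genes themselves were mostly low. Of 22 listed, 19 passed the filter on low counts, with 7 called higher and 1 lower (median 0.64), and Il3, Il17a and Il22 had no counts in any of the 5 libraries. This count is fragile: limma-voom called 2 higher, leaving out KO replicate 1 left 1 higher and 0 lower, and leaving out KO replicate 2 left 2 and 0. Lif, a cytokine of the IL-6 family, measured 25.4, 23.9 and 28.9 CPM in AYAA libraries and 1.04 and 2.2 CPM in KO-labelled libraries (log2 fold change 3.98, SE 0.80, adjusted p = 0.00067). WT libraries of the same time held 134 and 79.1 CPM, above all AYAA libraries. Ifng, the effector cytokine interferon gamma, had 2.66, 2.79 and 5.63 CPM in AYAA libraries and 0.518 and 0.783 CPM in KO-labelled libraries, while WT libraries held 51.6 and 53.7 CPM. Its difference barely passed (log2 fold change 2.48, SE 0.93, adjusted p = 0.048, and 0.24 without KO replicate 1). Il2 was at 0.102, 0.0457 and 0.229 CPM in AYAA libraries and 0.115 and 0.049 CPM in KO-labelled libraries (log2 fold change 0.63, SE 0.99, adjusted p = 0.69). Il21, the cytokine of helper cells for B cells, had 20, 21 and 26 counts in AYAA libraries and 0 and 2 counts in KO-labelled libraries, too few for a fold change here.

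**Figure D2:**
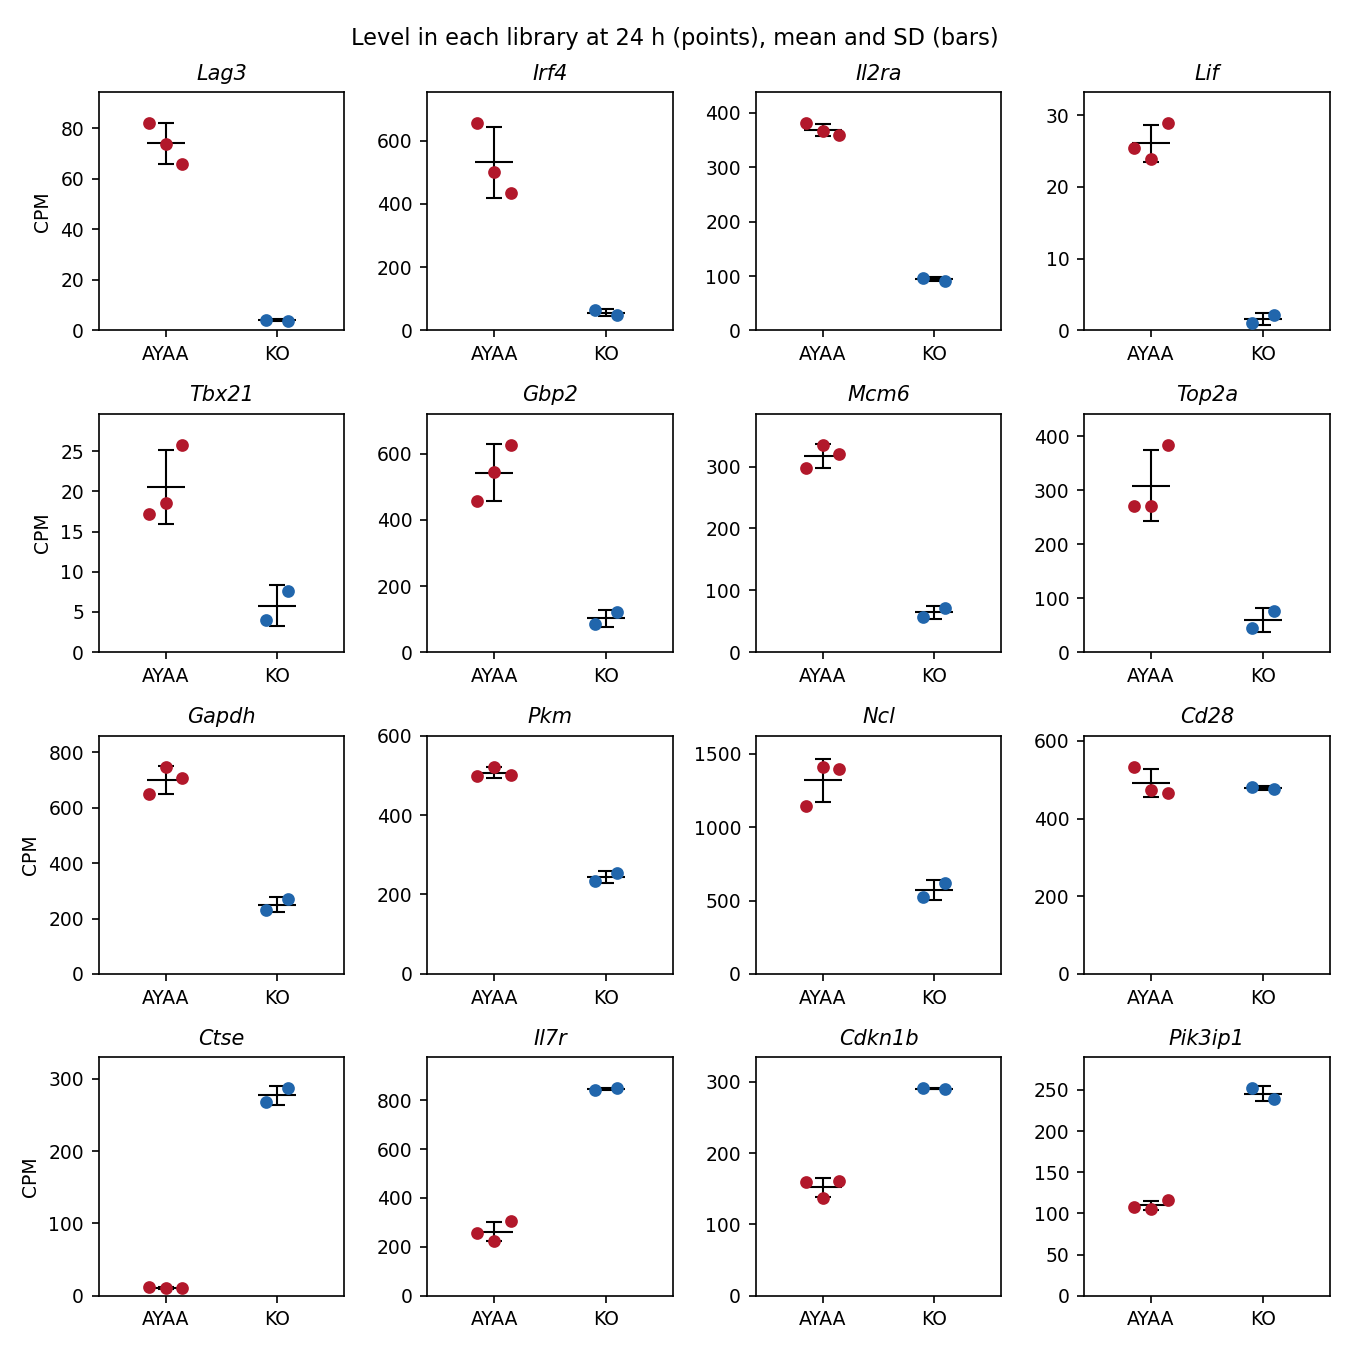
CPM of 16 genes in each library at 24 h, with AYAA libraries in red and KO-labelled libraries in blue on axes that start at 0; black bars are the mean and SD of 3 and 2 libraries. In Lag3, Irf4, Il2ra, Lif, Tbx21, Gbp2, Mcm6, Top2a, Gapdh, Pkm and Ncl the AYAA libraries are higher without overlap, in Cd28 they overlap, and in Ctse, Il7r, Cdkn1b and Pik3ip1 they are lower.

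Among transcription factors of activation and effector fate, 10 of 29 tested were called higher and 1 lower (median log2 fold change 0.62). Irf4, which scales with the strength of the T cell receptor signal and drives effector programmes, measured 655, 502 and 435 CPM in AYAA libraries and 64.7 and 48.4 CPM in KO-labelled libraries. All AYAA libraries were far above both KO-labelled libraries (log2 fold change 3.23, SE 0.27, adjusted p = 2.8e-08). Tbx21, which encodes the Th1 and cytotoxic factor T-bet, had 17.2, 18.6 and 25.8 CPM in AYAA libraries and 3.97 and 7.59 CPM in KO-labelled libraries (log2 fold change 1.82, SE 0.27, adjusted p = 2.5e-05). Irf8, a partner of T-bet in effector CD8 cells, had 37.9, 39.6 and 43.0 CPM in AYAA libraries and 12.7 and 13.6 CPM in KO-labelled libraries (log2 fold change 1.61, SE 0.29, adjusted p = 0.00022). For both of these genes AYAA libraries stayed below WT libraries, at 87.9 and 88.3 CPM for Tbx21 and 230 and 182 CPM for Irf8. Hif1a, the factor that drives glycolytic genes, had 266, 261 and 236 CPM in AYAA libraries and 102 and 102 CPM in KO-labelled libraries (log2 fold change 1.32, SE 0.15, adjusted p = 8.8e-07). The immediate early genes were divided. Jun, a subunit of AP-1, measured 17.9, 44.1 and 25.4 CPM in AYAA libraries and 14.0 and 12.1 CPM in KO-labelled libraries (log2 fold change 1.16, SE 0.27, adjusted p = 0.0026). The orphan nuclear receptors Nr4a3 and Nr4a2 also passed, at log2 fold changes of 0.91 and 1.17, but each lost its call when either KO library was left out. Egr1, Egr2, Egr3, Nr4a1 and Fos did not pass, with log2 fold changes of 0.28, 0.63, 0.41, -0.27 and 0.72. Egr2, Egr3 and Fos passed in the 24 h libraries with the replicate number as a block. Egr2 also passed in a fit to the 2 groups alone. Prdm1, a transcriptional repressor that promotes terminal effector differentiation, was the 1 gene called lower, at 6.80, 5.58 and 9.52 CPM in AYAA libraries and 12.3 and 15.9 CPM in KO-labelled libraries (log2 fold change -0.95, SE 0.25, adjusted p = 0.0059, and 0.10 without KO replicate 2). Without KO replicate 1, 7 factors were called higher and 1 lower, and without KO replicate 2 the counts were 6 and 0.

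Of the genes of naive and quiescent T cells, 10 of 25 tested were called lower in AYAA cells and 1 higher (median log2 fold change -0.54). The mean log2 CPM of the list was 7.63, 7.58 and 7.53 in AYAA libraries and 8.06 and 7.95 in KO-labelled libraries. Unstimulated WT libraries, at 7.66 and 7.67, lay between the 2 groups, without a test. Those libraries also held more B cell and myeloid marker RNA, so they are no clean baseline of resting T cells. Tob1, which restrains proliferation, measured 20.1, 18.2 and 19.4 CPM in AYAA libraries and 46.0 and 42.6 CPM in KO-labelled libraries (log2 fold change -1.2, SE 0.16, adjusted p = 4.3e-06). Unstimulated WT libraries held 13.9 and 17.0 CPM of Tob1, below both groups. Cdkn1b, which encodes the cell cycle inhibitor p27, had 159, 137 and 161 CPM in AYAA libraries and 291 and 290 CPM in KO-labelled libraries (log2 fold change -0.93, SE 0.19, adjusted p = 0.00078). Klf3, a Krüppel-like factor of resting lymphocytes, had 267, 201 and 273 CPM in AYAA libraries and 496 and 531 CPM in KO-labelled libraries (log2 fold change -1.06, SE 0.25, adjusted p = 0.0025). No library of either group overlapped the other in these genes, which was also so in 58.1% of all genes tested. Igfbp4, which binds insulin-like growth factors and marks naive CD4 cells, was the member that rose, with 246, 181 and 130 CPM in AYAA libraries and 71.0 and 33.4 CPM in KO-labelled libraries (log2 fold change 1.84, SE 0.35, adjusted p = 0.00039). Of the brakes on PI3 kinase and mTOR, 6 of 21 tested were called lower and 1 higher (median -0.10). Sesn1, a sestrin that restrains mTORC1 when amino acids are short, had 68.7, 55.2 and 60.6 CPM in AYAA libraries and 140 and 130 CPM in KO-labelled libraries (log2 fold change -1.13, SE 0.20, adjusted p = 0.00017). Pik3ip1, a membrane protein that inhibits PI3 kinase, had 108, 105 and 116 CPM in AYAA libraries and 252 and 239 CPM in KO-labelled libraries, with an adjusted p of 0.013 that became 0.094 without KO replicate 1. Of the autophagy and lysosome genes, 6 of 24 tested were called lower and 2 higher (median -0.25). Without KO replicate 1 the lower calls fell to 4 in the naive list, 1 among the brakes and 0 in the autophagy list.

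Glycolysis, the pathway in the series title, was higher in AYAA cells in 11 of 21 genes tested and lower in 1 (median log2 fold change 0.61). Pkm, which encodes pyruvate kinase, measured 498, 522 and 501 CPM in AYAA libraries and 233 and 255 CPM in KO-labelled libraries. The groups stood apart, with a mean of 507 ± 13 CPM in AYAA libraries (SD, n = 3) and 244 ± 15.4 CPM in KO-labelled libraries (SD, n = 2). Pkm changed by 1.06 on the log2 scale (SE 0.30, adjusted p = 0.0099, and 0.11 and 0.052 without KO replicate 1 or 2). These gene counts do not tell the spliced forms of Pkm apart. Gapdh, at the centre of the pathway, had 649, 749 and 706 CPM in AYAA libraries and 232 and 269 CPM in KO-labelled libraries (log2 fold change 1.49, SE 0.25, adjusted p = 8.3e-05). Hk2, the inducible hexokinase of the first step, had 22.8, 24.3 and 25.8 CPM in AYAA libraries and 3.34 and 6.22 CPM in KO-labelled libraries (log2 fold change 2.33, SE 0.63, adjusted p = 0.0070, and 0.12 without KO replicate 1). Ldha, which makes lactate, had 481, 494 and 485 CPM in AYAA libraries and 179 and 208 CPM in KO-labelled libraries (log2 fold change 1.33, SE 0.31, adjusted p = 0.0026, and 0.060 without KO replicate 1). In all of these genes AYAA libraries were above the KO-labelled libraries and below both WT libraries, which held 887 and 643 CPM of Pkm. The glucose transporters Slc2a1 and Slc2a3 did not pass, at log2 fold changes of 0.41 (SE 0.39) and -0.12 (SE 0.16). Slc2a1, Eno1, Aldoa and Pfkl did not pass in the fit as reported. They did pass in fits to the 2 groups alone and to the 24 h libraries alone. Pdk1, which holds pyruvate back from the mitochondrion, was the member that fell, with 227, 221 and 264 CPM in AYAA libraries and 316 and 371 CPM in KO-labelled libraries (log2 fold change -0.53, SE 0.16, adjusted p = 0.016, and 0.17 without KO replicate 2). Without KO replicate 1, 1 glycolysis gene was called higher, and without KO replicate 2, 8 were.

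The respiratory chain showed smaller but more even differences. Of 36 nuclear-encoded subunits tested, 35 were called higher and 0 lower, and 28 were called higher without KO replicate 1. The log2 fold changes of the 36 ranged between 0.27 and 1.27 with a median of 0.79. Atp5c1, a subunit of the ATP synthase, measured 117, 129 and 131 CPM in AYAA libraries and 62.5 and 75.2 CPM in KO-labelled libraries (log2 fold change 0.86, SE 0.10, adjusted p = 8.4e-07). Uqcrfs1, the iron-sulfur subunit of complex III, had 58.5, 61.4 and 56.0 CPM in AYAA libraries and 30.7 and 35.1 CPM in KO-labelled libraries (log2 fold change 0.83, SE 0.12, adjusted p = 9.4e-06). AYAA libraries lay below WT libraries, which held 80.4 and 71.0 CPM of Uqcrfs1. Of the 13 protein genes of the mitochondrial genome, 8 were called higher and 0 lower (median 0.64), and 4 without KO replicate 1.

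Biosynthetic genes were also higher. In the ATF4, amino acid and one-carbon list, 14 of 27 tested were called higher and 1 lower (median log2 fold change 0.86), and 6 and 0 without KO replicate 1 or 8 and 0 without KO replicate 2. Psat1, an enzyme of serine synthesis, measured 83.3, 94.1 and 90.3 CPM in AYAA libraries and 22.1 and 30.0 CPM in KO-labelled libraries (log2 fold change 1.77, SE 0.35, adjusted p = 0.00048). Mthfd2, the mitochondrial folate enzyme, had 46.7, 50.2 and 55.9 CPM in AYAA libraries and 16.8 and 21.4 CPM in KO-labelled libraries (log2 fold change 1.41, SE 0.23, adjusted p = 7.7e-05). The member that fell, Trib3, is a pseudokinase induced by ATF4, at 6.24, 5.26 and 7.05 CPM in AYAA libraries and 12.8 and 12.6 CPM in KO-labelled libraries (log2 fold change -1.04, SE 0.30, adjusted p = 0.010, and 0.076 without KO replicate 1). In the synthesis of cholesterol and fatty acids, 16 of 30 tested were called higher and 1 lower (median 0.54), and 3 and 0 without KO replicate 1 or 7 and 0 without KO replicate 2. Idi1, an enzyme of the isoprenoid steps, had 73.9, 84.2 and 100 CPM in AYAA libraries and 30.5 and 36.3 CPM in KO-labelled libraries (log2 fold change 1.37, SE 0.30, adjusted p = 0.0013).

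Ribosome biogenesis was higher in AYAA cells, with 30 of 34 factors tested called higher and 0 lower (median log2 fold change 0.87). Ncl, which encodes the nucleolar protein nucleolin, measured 1145, 1412 and 1395 CPM in AYAA libraries and 521 and 618 CPM in KO-labelled libraries (log2 fold change 1.21, SE 0.21, adjusted p = 0.00013). Npm1, the nucleolar chaperone, had 925, 1139 and 1141 CPM in AYAA libraries and 390 and 501 CPM in KO-labelled libraries (log2 fold change 1.26, SE 0.18, adjusted p = 1.2e-05). Myc, the factor known to drive this programme, had 180, 188 and 175 CPM in AYAA libraries and 74.0 and 92.7 CPM in KO-labelled libraries, which is 1.12 higher on the log2 scale (SE 0.26, adjusted p = 0.0026, and 0.071 without KO replicate 1). Of the 12 members tested of its network 2 were called higher and 1 lower (median 0.26), and 1 and 0 without KO replicate 1. Without that library 5 biogenesis factors were called higher, against 26 without KO replicate 2. Of 81 cytosolic ribosomal protein genes, 69 were called higher and 0 lower, with a median of 0.46, and 43 were called higher without KO replicate 1. This family has many pseudogene copies that share reads, so its single members are uncertain, and it was added to the lists after its values were seen. The promoter of Pes1, a factor of large subunit assembly that measured 71.9, 78.1 and 73.6 CPM in AYAA libraries and 41.1 and 45.9 CPM in KO-labelled libraries (log2 fold change 0.78, SE 0.17, adjusted p = 0.0017), is shown for the E-box that MYC is known to bind. It spans chr11:3963725-3964024 on the plus strand (RefSeq, GRCm38.p6), from 250 bases before to 50 after the start of the gene, and capitals mark the E-box CACGTG.
Pes1 promoter: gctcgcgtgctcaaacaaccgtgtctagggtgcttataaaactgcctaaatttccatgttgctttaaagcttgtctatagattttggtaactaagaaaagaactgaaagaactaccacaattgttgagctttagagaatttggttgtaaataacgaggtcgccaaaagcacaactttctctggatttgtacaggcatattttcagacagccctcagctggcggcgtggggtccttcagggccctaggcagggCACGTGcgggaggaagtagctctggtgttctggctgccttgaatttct

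CACGTG was searched on both strands, where it reads the same. It was in 7 of 30 promoters of the biogenesis list (23.3%) and in 9.53% of the 14307 promoters of genes tested. A match in such a window is a description of its letters only.

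Cell cycle genes had the highest medians of the lists. All 32 DNA replication genes tested were called higher, between 1.01 and 2.66 on the log2 scale with a median of 1.83, and 32 were called without either KO library. Of 34 mitosis genes, 32 were called higher and 0 lower (median 1.84), with Cenpa at -0.40 and Smc4 at -0.27 outside the calls, and 27 without KO replicate 1. Mcm6, a subunit of the replicative helicase, measured 297, 335 and 320 CPM in AYAA libraries and 57.2 and 71.5 CPM in KO-labelled libraries (log2 fold change 2.30, SE 0.25, adjusted p = 4.6e-07). Dtl, an adaptor of the ubiquitin ligase that degrades licensing factors in S phase, had 87.5, 119 and 95.1 CPM in AYAA libraries and 7.77 and 20.5 CPM in KO-labelled libraries (log2 fold change 2.82, SE 0.33, adjusted p = 1.3e-06). Mcm10, Dna2, Chaf1a and Esco2, which act in replication fork assembly, end processing, histone deposition and cohesion, had log2 fold changes of 2.66, 2.80, 2.64 and 2.60. Top2a, the topoisomerase of mitotic chromosomes, had 271, 271 and 384 CPM in AYAA libraries and 44.4 and 75.7 CPM in KO-labelled libraries (log2 fold change 2.36, SE 0.26, adjusted p = 6.1e-07). Aurkb, a kinase of chromosome segregation, had 20.9, 20.9 and 29.2 CPM in AYAA libraries and 3.97 and 5.39 CPM in KO-labelled libraries (log2 fold change 2.33, SE 0.27, adjusted p = 8.8e-07). In every one of these genes KO replicate 1 was the lowest of the 5 libraries.

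Upstream of S phase, Ccnd2, the D-type cyclin of G1, measured 983, 993 and 946 CPM in AYAA libraries and 378 and 430 CPM in KO-labelled libraries (log2 fold change 1.27, SE 0.14, adjusted p = 5.4e-07). Cdk4, its kinase partner, had 129, 141 and 148 CPM in AYAA libraries and 57.6 and 70.9 CPM in KO-labelled libraries (log2 fold change 1.12, SE 0.20, adjusted p = 0.00018). Rb1, the retinoblastoma protein that holds E2F factors back, fell, with 67.8, 70.9 and 75.5 CPM in AYAA libraries and 97.7 and 97.1 CPM in KO-labelled libraries (log2 fold change -0.45, SE 0.08, adjusted p = 0.00026). Of the 19 G1 genes tested, 9 were called higher and 4 lower (median 0.53), and 9 and 2 without KO replicate 1.

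Promoters of one replication and one mitosis gene are shown because both lists moved as blocks and each has a known promoter element, the E2F site and the cell cycle homology region (CHR). The Mcm6 window is chr1:128359656-128359955 and the Top2a window is chr11:99024140-99024439, both on the minus strand (RefSeq, GRCm38.p6) and written 5′ to 3′ along the gene. Capitals mark 2 copies of the E2F letters TTTGGCGC in Mcm6 and the CHR letters TTTGAA, once on each strand, in Top2a.
Mcm6 promoter: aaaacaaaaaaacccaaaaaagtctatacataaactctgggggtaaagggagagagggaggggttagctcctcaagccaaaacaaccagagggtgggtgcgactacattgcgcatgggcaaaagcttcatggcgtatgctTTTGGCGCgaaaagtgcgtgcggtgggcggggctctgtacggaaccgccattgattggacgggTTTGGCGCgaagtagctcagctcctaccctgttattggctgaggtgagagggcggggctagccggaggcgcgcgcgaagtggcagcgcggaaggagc
Top2a promoter: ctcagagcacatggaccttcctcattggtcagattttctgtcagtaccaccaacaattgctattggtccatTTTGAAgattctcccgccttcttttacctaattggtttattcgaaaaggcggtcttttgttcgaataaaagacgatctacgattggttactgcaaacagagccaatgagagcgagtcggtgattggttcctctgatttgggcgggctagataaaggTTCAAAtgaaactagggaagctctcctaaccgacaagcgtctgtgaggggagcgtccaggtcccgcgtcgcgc

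Searched on both strands, TTTCCCGC or TTTGGCGC was in 11 of 36 promoters of the replication list (30.6%), against 2.73% of promoters of genes tested. TTTGAA was in 22 of 29 promoters of the mitosis list (75.9%), against 12.8% of promoters of genes tested. A window without these letters says nothing about the factor.

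Among interferon-induced genes the GTPases showed the largest differences. Of 34 tested, 13 were called higher and 1 lower (median log2 fold change 0.75), and 10 and 0 without KO replicate 1. Gbp2, a guanylate-binding protein that acts on intracellular pathogens, measured 457, 546 and 627 CPM in AYAA libraries and 83.9 and 120 CPM in KO-labelled libraries (log2 fold change 2.41, SE 0.24, adjusted p = 1.9e-07). Iigp1, an immunity-related GTPase induced by interferon gamma, had 154, 158 and 245 CPM in AYAA libraries and 22.0 and 33.0 CPM in KO-labelled libraries (log2 fold change 2.75, SE 0.32, adjusted p = 8.8e-07). Of the antiviral genes Ifit3 and Oas3 passed, at log2 fold changes of 0.99 and 0.82, and the RNA sensor Ddx58 was the member called lower, at -0.56. The antiviral genes Mx1, Rsad2, Isg15, Oas2 and Irf7 did not pass, at log2 fold changes of 0.66, 0.85, 0.59, -0.12 and 0.14. The promoter of Gbp5, whose 160, 169 and 188 CPM in AYAA libraries stood against 37.4 and 47.4 CPM in KO-labelled libraries (log2 fold change 2.02, SE 0.19, adjusted p = 1.7e-07), is shown for its interferon response core. It spans chr3:142496684-142496983 on the plus strand (RefSeq, GRCm38.p6), and capitals mark that core, GAAA, any 2 bases and GAAA, which here lies on the opposite strand. The Gbp genes lie in a cluster of near-identical copies, so single members are uncertain.
Gbp5 promoter: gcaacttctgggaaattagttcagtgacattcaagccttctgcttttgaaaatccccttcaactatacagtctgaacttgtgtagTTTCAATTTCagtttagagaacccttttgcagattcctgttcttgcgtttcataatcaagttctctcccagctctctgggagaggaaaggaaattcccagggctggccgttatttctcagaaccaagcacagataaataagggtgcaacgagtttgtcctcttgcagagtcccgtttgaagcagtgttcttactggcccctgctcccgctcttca

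The interferon response core, searched on both strands, was in 15 of 30 promoters of the interferon list (50.0%), against 3.22% of promoters of genes tested.

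RNA processing, the second subject of the series title, was higher in part. In the list of the cap-binding complex, ARS2 and partners, 13 of 22 tested were called higher and 0 lower (median log2 fold change 0.46), but 3 without KO replicate 1. Ncbp2, the cap-binding subunit itself, measured 37.0, 36.0 and 39.0 CPM in AYAA libraries and 23.5 and 25.9 CPM in KO-labelled libraries (log2 fold change 0.59, SE 0.14, adjusted p = 0.0025, and 0.061 without KO replicate 1). Of the SR, hnRNP and other splicing regulators, 22 of 37 tested were called higher and 2 lower (median 0.39), and 4 and 1 without KO replicate 1 or 13 and 0 without KO replicate 2. Hnrnpa1 and Ptbp1 encode repressors known to act on the alternative exons of Pkm. Hnrnpa1 had 558, 649 and 620 CPM in AYAA libraries and 261 and 320 CPM in KO-labelled libraries (log2 fold change 1.07, SE 0.14, adjusted p = 3.7e-06). Ptbp1 had 332, 335 and 316 CPM in AYAA libraries and 210 and 225 CPM in KO-labelled libraries (log2 fold change 0.59, SE 0.15, adjusted p = 0.0041, and 0.071 without KO replicate 1).

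Survival, killing and migration genes moved in smaller numbers. In the BCL2 family 5 of 16 tested were called higher and 2 lower (median log2 fold change 0.36), and 2 and 0 without KO replicate 1. Bcl2a1b, a pro-survival member with near-identical copies, measured 14.0, 14.4 and 14.9 CPM in AYAA libraries and 5.18 and 4.46 CPM in KO-labelled libraries (log2 fold change 1.59, SE 0.23, adjusted p = 1.4e-05). Of the cytotoxic granule genes 5 of 13 tested were called higher and 0 lower (median 0.38), and 1 without KO replicate 1. Gzmb, which encodes granzyme B, ranged widely, with 58.8, 86.6 and 138 CPM in AYAA libraries and 18.4 and 34.3 CPM in KO-labelled libraries (log2 fold change 1.84, SE 0.64, adjusted p = 0.032, and 0.27 without KO replicate 1). Of the homing and adhesion receptors 8 of 25 tested were called higher and 5 lower (median 0.32), and 3 and 1 without KO replicate 1. Ccr4, a chemokine receptor of activated helper and skin-homing cells, had 71.9, 57.6 and 65.7 CPM in AYAA libraries and 15.2 and 15.6 CPM in KO-labelled libraries (log2 fold change 2.08, SE 0.23, adjusted p = 7.3e-07). WT libraries held less Ccr4 than AYAA libraries, at 24.9 and 35.9 CPM. Cxcr4, a receptor for the stromal chemokine CXCL12, was lower, with 25.4, 21.2 and 36.4 CPM in AYAA libraries and 77.4 and 86.1 CPM in KO-labelled libraries (log2 fold change -1.56, SE 0.31, adjusted p = 0.00062). Of the regulatory T cell genes 6 of 16 tested were called higher and 1 lower (median 0.43), and Izumo1r, the folate receptor 4 of regulatory and anergic cells, had 73.9, 62.4 and 49.9 CPM in AYAA libraries and 27.2 and 17.9 CPM in KO-labelled libraries (log2 fold change 1.46, SE 0.32, adjusted p = 0.0014).

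**Figure D3:**
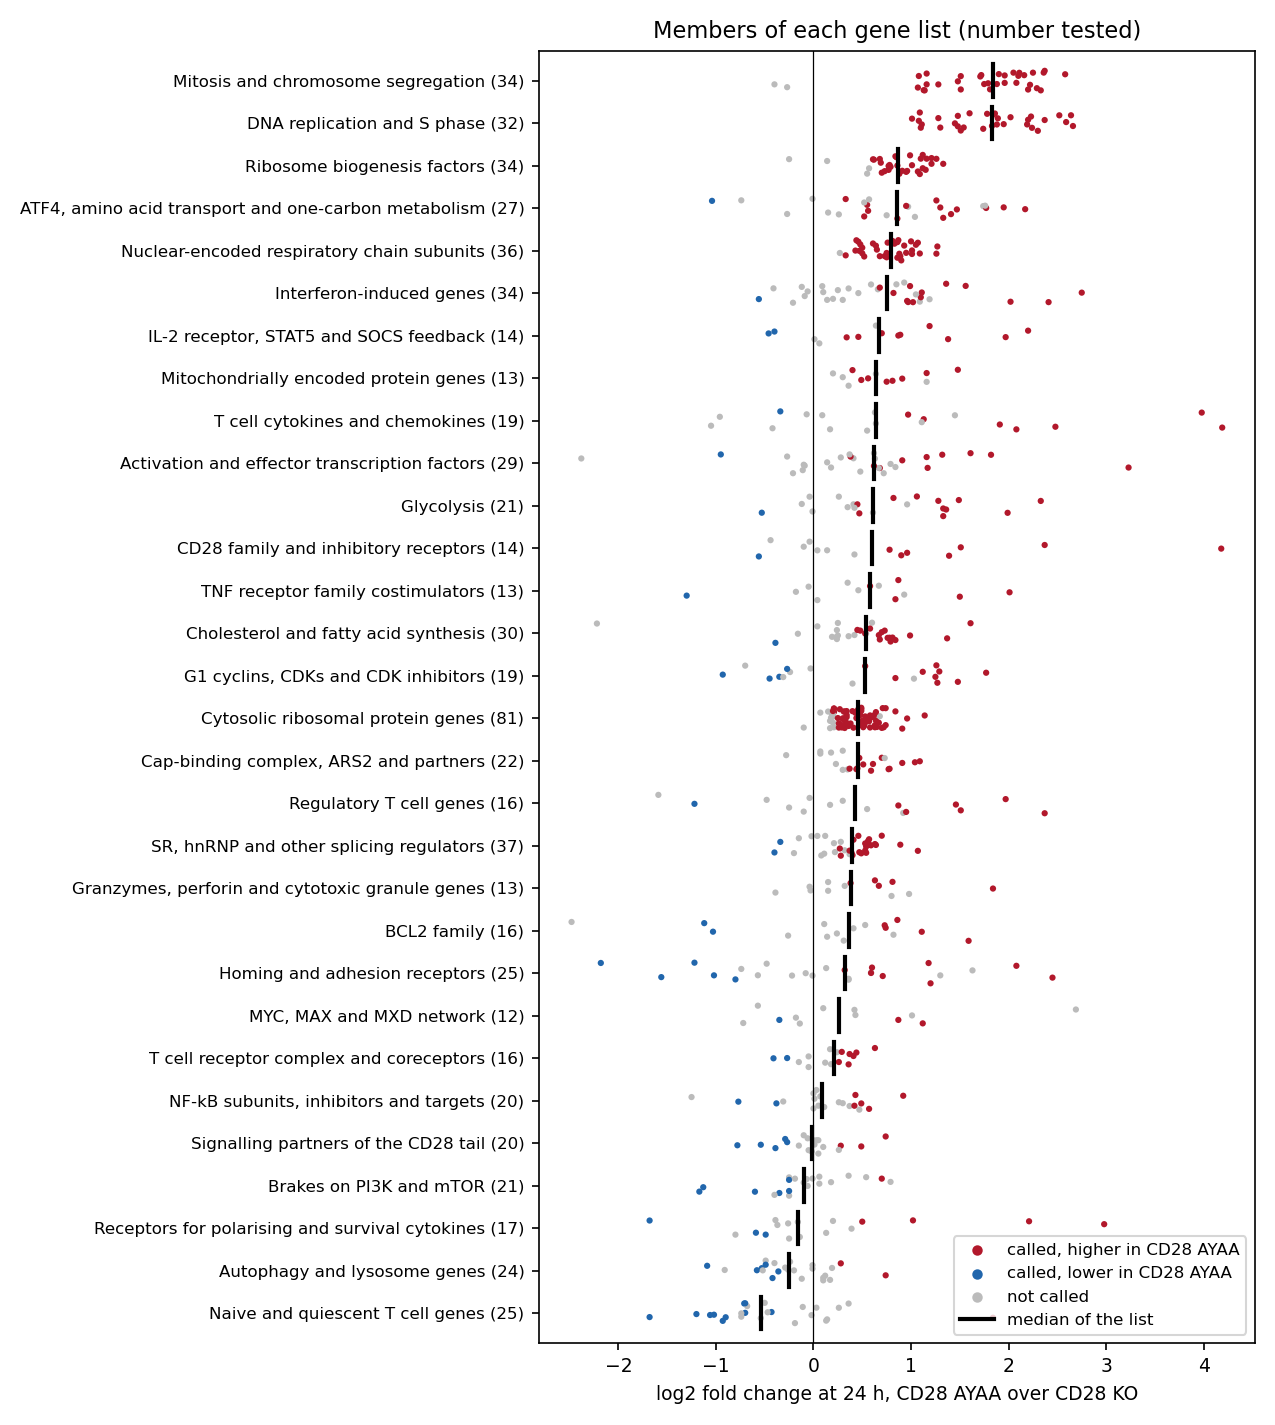
Log2 fold change of CD28 AYAA over CD28 KO libraries at 24 h for every tested member of 30 gene lists, ordered by list median (black bar), with called members in red (higher in AYAA) or blue (lower) and the rest in grey. Mitosis and DNA replication lie furthest to the right with medians of 1.84 and 1.83, and naive T cell genes furthest to the left at -0.54.

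Genes lower in AYAA cells included several that B cells are known for. Of 16 B cell markers 7 were called lower and 0 higher (median log2 fold change -2.21), and 2 lower without KO replicate 1. Cd79b, a signalling chain of the B cell receptor, measured 5.22, 2.88 and 3.34 CPM in AYAA libraries and 12.9 and 11.2 CPM in KO-labelled libraries (log2 fold change -1.66, SE 0.33, adjusted p = 0.00065). Cd74, the invariant chain of MHC class II, had 26.2, 11.8 and 6.96 CPM in AYAA libraries and 86.6 and 65.7 CPM in KO-labelled libraries (log2 fold change -2.35, SE 0.61, adjusted p = 0.0053, and 0.060 without KO replicate 1). H2-Ob, a chain of the class II modulator H2-O, had 25.2, 18.5 and 21.9 CPM in AYAA libraries and 78.3 and 78.2 CPM in KO-labelled libraries (log2 fold change -1.84, SE 0.28, adjusted p = 2.9e-05). The summed B cell markers moved with Cd74 and H2-Ob across the groups, and the part they have in these results was not tested. Other genes with large falls were Nav2, Lypd6b, St8sia6, Carns1, Mex3b, Dtx4 and Myo10, between -1.5 and -2.02 on the log2 scale. Of these Myo10, an unconventional myosin of filopodia, had 20.7, 15.3 and 15.6 CPM in AYAA libraries and 50.5 and 46.8 CPM in KO-labelled libraries (log2 fold change -1.5, SE 0.14, adjusted p = 1.3e-07).

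Of all genes tested the smallest p belonged to Ctse, which encodes the aspartic protease cathepsin E and lies on the same chromosome as Cd28 (chromosome 1, 131638306 to 131675505). It measured 12.4, 10.2 and 10.3 CPM in AYAA libraries and 268 and 287 CPM in KO-labelled libraries (log2 fold change -4.66, SE 0.20, adjusted p = 1.3e-14). The KO-labelled libraries were the highest of those given here, and WT libraries of that time held 5.44 and 6.82 CPM. Rnpep, an aminopeptidase gene at 135262712 to 135284084 on the same chromosome, went the other way, with 31.5, 33.7 and 37.0 CPM in AYAA libraries and 6.90 and 6.46 CPM in KO-labelled libraries (log2 fold change 2.35, SE 0.16, adjusted p = 3.5e-10). Chromosome 1 held 7.18% of genes tested and 6.84% of genes called at 24 h. Within 5 Mb of Cd28, 34 of 83 genes tested were called at 24 h (41.0%, against 27.4% of all genes tested). Of these 24 were higher and 10 lower, and the median of the 83 was 0.04. At 72 h 2 of the 83 were called, against 1.03% of all genes tested. They were Ctla4 and Gm37198 (60779352 to 60781461), at log2 fold changes of 2.13 and 1.59, and both were also called at 24 h. Whether the changed Cd28 locus has a part in the differences of its neighbours was not tested.

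**Figure D4:**
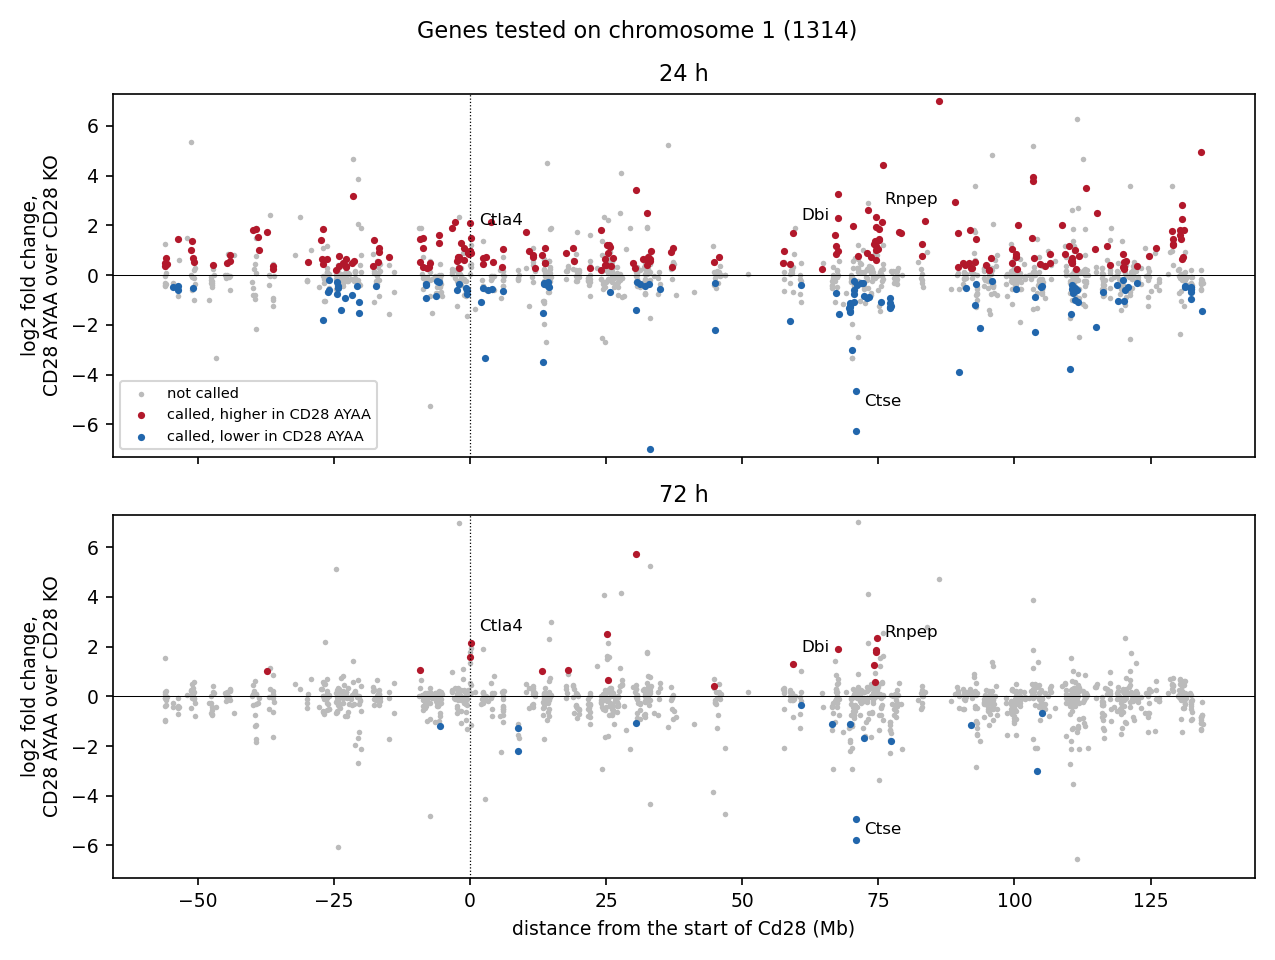
Log2 fold change of CD28 AYAA over CD28 KO for the 1314 genes tested on chromosome 1, by distance from the start of Cd28 in Mb, at 24 h (upper) and 72 h (lower), with values beyond 7 drawn at 7. Called genes are red (higher in AYAA) or blue (lower); Ctse at -4.66 and -4.95 and Rnpep at 2.35 and 1.87 stand out at both times.

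Far fewer genes differed between the same genotypes at 72 h, in libraries that are separate from those of 24 h. At 72 h, 188 genes were called (1.03%), 91 higher (0.497%) and 97 lower (0.53%), in 3 AYAA and 2 KO-labelled libraries. Leaving out single 72 h libraries gave 14 and 39 calls without either KO-labelled library and 50 to 98 without an AYAA library. In an interaction test, the difference at 24 h was not the same as that at 72 h in 501 genes (2.74%), of which 425 (2.32%) were more positive and 76 (0.415%) more negative at 24 h. Of those 501, 480 were also called at 24 h, and the count was 58 without KO replicate 1 of 24 h. It was 94 and 239 without either KO-labelled library of 72 h, 321 and 301 without AYAA replicate 2 or 3 of 24 h and 310 without AYAA replicate 1 of 72 h. Irf4 measured 118, 99.5 and 99.0 CPM in AYAA libraries and 89.1 and 62.1 CPM in KO-labelled libraries at 72 h, a log2 fold change of 0.48 that was 2.75 below that of 24 h (SE 0.34, adjusted p = 0.00016). Lag3 was at 14.5, 10.3 and 9.76 CPM in AYAA libraries and 6.36 and 3.40 CPM in KO-labelled libraries at 72 h, and its 2 differences were 2.95 apart (SE 0.54, adjusted p = 0.0028). In both genes the AYAA libraries were lower at 72 h than at 24 h. In the interferon and cell cycle genes the KO-labelled libraries were higher at 72 h instead: Iigp1 was at 285, 270 and 258 CPM in AYAA libraries and 253 and 261 CPM in KO-labelled libraries, and Mcm6 at 447, 471 and 474 CPM in AYAA libraries and 294 and 288 CPM in KO-labelled libraries. The difference between times passed in 22 of 32 replication genes and 20 of 34 mitosis genes, and in 0 of 21 glycolysis genes. Their median log2 fold changes at 72 h were 0.39, 0.46 and 0.37.

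Of the genes called at 72 h, 115 were also called at 24 h (61.2% of the 72 h calls and 2.29% of the 24 h calls), 114 with the same sign. Ctse was at 6.72, 7.02 and 5.2 CPM in AYAA libraries and 172 and 219 CPM in KO-labelled libraries at 72 h (log2 fold change -4.95, SE 0.20, adjusted p = 4.9e-15). Ctla4 was at 57.6, 44.1 and 38.6 CPM in AYAA libraries and 13.8 and 7.49 CPM in KO-labelled libraries (log2 fold change 2.13, SE 0.43, adjusted p = 0.013). Igfbp4 was at 212, 162 and 97.4 CPM in AYAA libraries and 34.3 and 34.1 CPM in KO-labelled libraries (log2 fold change 2.2, SE 0.36, adjusted p = 0.0022). Tnfrsf18 and Synpo, an actin-associated protein, also passed at both times, at 0.61 and 1.80 on the log2 scale at 72 h. The 1 gene with opposite signs was Esd, an esterase, at 0.71 at 24 h and -0.59 at 72 h, named after its values were seen. Of the 115 genes 20 were on chromosome 1 (17.4%, against 7.18% of genes tested), among them Dbi, Ube2t, Lct, Rab7b and Ptpn7, also named after their values were seen. In the synthesis of cholesterol and fatty acids 8 genes were called higher at 72 h (median 0.67), such as Cyp51, at 153, 246 and 242 CPM in AYAA libraries and 119 and 120 CPM in KO-labelled libraries.

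**Figure D5:**
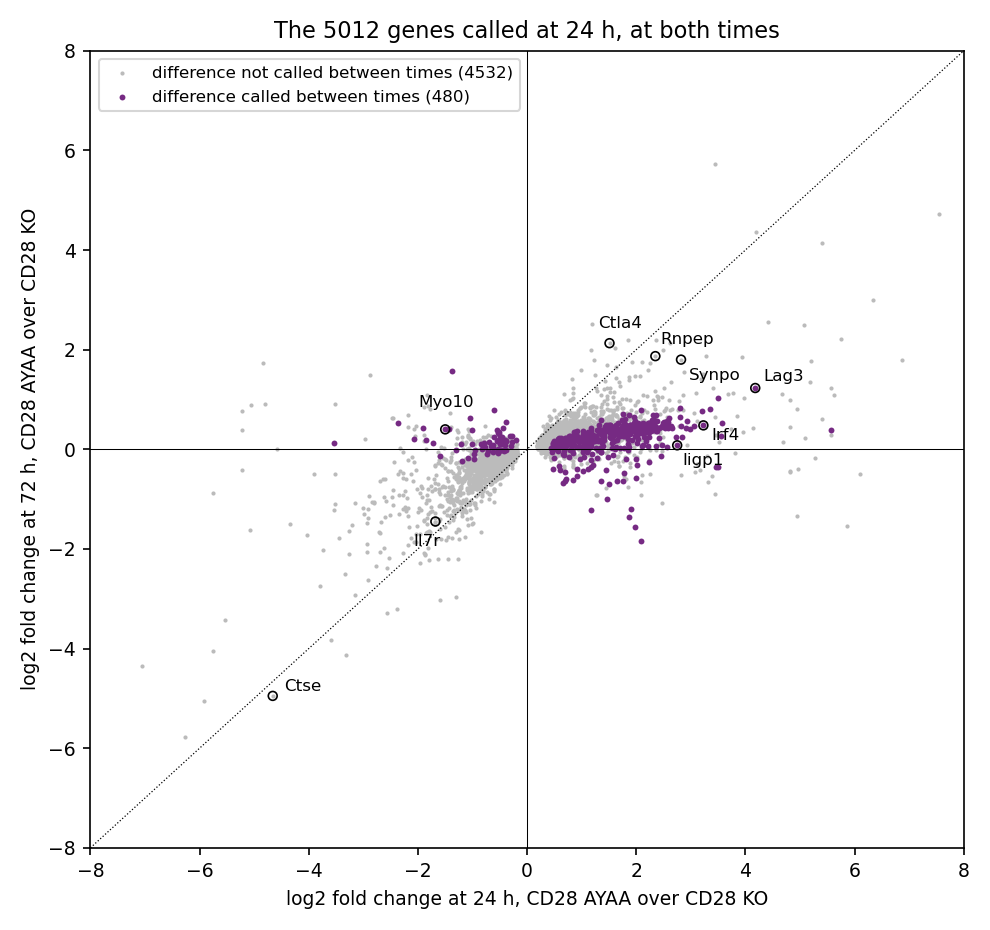
Log2 fold change of CD28 AYAA over CD28 KO at 24 h (x axis) and at 72 h (y axis) for the 5012 genes called at 24 h, with the line of equal change dotted. Purple points are the 480 genes whose 2 differences differed in the test; Irf4 lies near the x axis, at 3.23 and 0.48, Lag3 lies at 4.18 and 1.23, and Ctse lies near the dotted line, at -4.66 and -4.95.

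The other CD28 genotypes of 24 h give a scale for these levels, without a test. The mean log2 CPM of the replication list was 6.12, 6.27 and 6.30 in AYAA libraries, 5.32, 5.22 and 5.29 in DKI libraries, 6.71, 6.75 and 6.86 in Y170F libraries and 4.13 and 4.67 in KO-labelled libraries, with WT at 7.10 and 6.46. DKI is a further CD28 genotype whose changes the labels do not spell out. The glycolysis list was at 6.49, 6.54 and 6.53 in AYAA libraries, 6.16, 6.21 and 6.11 in DKI libraries, 6.82, 6.83 and 6.93 in Y170F libraries and 5.66 and 5.84 in KO-labelled libraries, with WT at 7.05 and 6.69. On both lists AYAA libraries lay above DKI and KO-labelled libraries and below Y170F libraries, with no overlap.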

How the data were processed

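RNA of 34 libraries was measured by sequencing after depletion of ribosomal RNA. The authors deposited 1 table of expected counts for 48526 genes, and its values are estimated counts that need not be whole. The submitters' processing notes name bcl2fastq 2.20, FastQC, STAR, RSEM, limma, mm10 and GRCm38, with no role or order. The strand setting of the counting is not given in the sources used here, so antisense and multi-copy genes are uncertain. Columns were matched to samples by name, and the KO columns of 72 h, whose numbers differ from the titles, were matched to their group only.

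Expected counts were rounded. Gene IDs were matched to GENCODE M21 for 48144 genes (99.2%). Counts were scaled by TMM in edgeR 4.0.16, genes with low counts were removed with filterByExpr, and 18292 genes were fitted over all 34 libraries with 1 mean per group by the quasi-likelihood F test (R 4.3.3), with Benjamini-Hochberg adjustment and a threshold of 0.05. The difference between 24 h and 72 h was tested as an interaction in that fit. The SE is the absolute log2 fold change divided by the square root of F. Libraries held 15686963 to 21357646 counts at 24 h, and the median SE of a log2 fold change was 0.24. Means are given with the SD over libraries. The same method was also run on counts simulated from the means and dispersions of this fit, a check that shares its model. Sequences were read with Biopython 1.88 from RefSeq and GRCm38 files, in Python 3.11.15. Further packages were matplotlib 3.10.9 for figures and, for tables, numpy 2.4.6 and pandas 2.3.3.

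Alternatives were RLE scaling, DESeq2 1.42.0, limma-voom (limma 3.58.1), no filter, protein-coding genes only, sex as a term, fits to fewer libraries, the replicate number as a block (within 24 h and, added after seeing the data, across times), and leaving out each library.

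The genes named are Cd28, Pkm and Srrt; up to 12 per direction with the largest change among called genes with non-overlapping CPM and a mean log2 CPM of at least 3 (up to 4 for the interaction); up to 5 members of each list with the smallest p; any member of 6 central lists; called genes within 5 Mb of Cd28; and the 3 smallest p per direction. Cd4, Cd8b1, Foxp3, Cenpa, Smc4, Ifit3, Oas2, Oas3, Ddx58, Mx1, Rsad2, Isg15, Irf7, Esd, Dbi, Ube2t, Lct, Rab7b and Ptpn7 were chosen after their values were seen. The comparison, its members and the gene lists were chosen with earlier results of these data known, and the lists of ribosomal protein genes and mitochondrially encoded genes were added after their values were seen. Some items are not reported here.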

Additional observations from a re-analysis of the deposited data

Results flagged for a closer look

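The difference between AYAA and KO-labelled libraries at 24 h was not the same as at 72 h in 501 genes, by an interaction test in edgeR's quasi-likelihood fit at an adjusted p under 0.05. Values here are the log2 fold change at 24 h minus that at 72 h.

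Among the named genes more positive at 24 h, Lag3 and Irf4 differed by 2.95 and 2.75, and the IL-12 receptor chain Il12rb2 by 2.58. The interferon-induced GTPases Iigp1 and Gbp10 differed by 2.68 and 2.60. The replication genes Dtl, Mcm10, Chaf1a, Dna2 and Esco2 differed by 2.36, 2.23, 2.18, 2.16 and 1.98. Pros1, which encodes the coagulation cofactor and TAM receptor ligand protein S, differed by 2.44, and Adss, an enzyme of AMP synthesis, by 0.85.

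Among those more negative at 24 h, Myo10 differed by -1.90, the ATF4 target Trib3 by -1.67, the RNA-binding protein gene Mex3b by -1.46, the cell cycle phosphatase gene Cdc25b by -1.40 and Ncln, which encodes the endoplasmic reticulum protein nicalin, by -0.91. Cdc25b measured 70.9, 56.5 and 49.7 CPM in AYAA libraries and 134 and 105 CPM in KO-labelled libraries at 24 h, and 122, 109 and 115 CPM in AYAA libraries and 91.0 and 85.6 CPM in KO-labelled libraries at 72 h. The calls for Mex3b, Gbp10, Cdc25b and Trib3 were lost without KO replicate 1 of 24 h.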

How the results depend on the processing

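The 24 h count of 5012 called genes ranged between 1922 and 4471 when single libraries were left out, the lowest without KO replicate 1. It was 6432 (3668 higher and 2764 lower, 57.0% higher) in a fit to the 2 groups alone and 4904 (2835 higher and 2069 lower, 57.8% higher) with protein-coding genes only, against 68.0% higher in the fit as reported. The 72 h count of 188 was 532 with DESeq2, 421 without the filter and 1789 with the groups compared alone, and 14 to 98 with single libraries left out. The interaction count of 501 was 783 with DESeq2 and 2049 with the groups compared alone, and 58 to 474 with single libraries left out. The cause of these shifts was not tested. Of 226 named genes called at 24 h, 122 kept their call in every alternative that tested them (14, or 13 for genes that are not protein-coding) and 104 lost it in at least one, 91 of them without KO replicate 1 and 48 without KO replicate 2, and 0 of the 226 changed sign.

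With the replicate number as a block, in the fit to all 24 h libraries, 5855 genes were called, against 5897 in that fit without it. Deviations of same-numbered libraries had correlations of 0.15 and -0.08 across genes, and the numbers were not taken as a pairing. AYAA replicate 3 had 0.23 with KO replicate 2 and -0.23 with KO replicate 1. With only 2 KO libraries such values mirror each other, so they cannot decide whether a pairing exists. Same-numbered AYAA libraries of 24 h and 72 h had correlations of 0.19, 0.04 and 0.31 and the same sex by their reads, and the labels do not say whether they share animals. The KO libraries of 72 h carry no matched number. In an alternative chosen after seeing the data, limma-voom with a replicate block across times called 436 genes in the interaction, against 384 without the block, and Trib3 had an adjusted p of 0.057.

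Only 2 KO-labelled libraries carry the comparison, and leaving out either leaves a lone library that is assumed to vary like the other groups. Genes of few counts, such as most cytokines, could not be resolved at this depth.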
